A study of Mus musculus with 42 samples.

Results

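The genes of the route from tryptophan to kynurenine and on to NAD were followed in mouse liver. They were the 8 genes named Tdo2, Ido2, Afmid, Kmo, Kynu, Haao, Qprt, and Acmsd, taken by gene name from a table of 54532 genes, and each name was found once. Most dietary tryptophan that is not used for protein is broken down along this route, and the liver carries its main flow. The first step opens the indole ring, later steps give kynurenine and hydroxylated derivatives, and the last intermediate either closes to quinolinate, a precursor of NAD, or is diverted to complete oxidation. The first enzyme, tryptophan dioxygenase, is a classic example of a liver enzyme induced by glucocorticoids and by its own substrate.

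Poly(A) RNA labelled as liver was sequenced from female C57BL/6 mice, given as the substrain C57BL/6NHsd in the methods of the study, that were weaned at 3 weeks of age and then fed for 3 weeks. The control diet, AIN93G, drew 16% of its energy from soybean oil, and the high-fat diet (HFD) drew 45% from the same oil. Mice had free access to food and were not fasted. Zeitgeber time (ZT) counts hours from lights on, and lights went off at ZT 12. Samples were taken every 4 h from ZT 0 to ZT 24, with 3 libraries per diet and time point, 42 in all. By the methods of the study, collection ran for longer than a day, and the labels used here give no day for a library. Total counts ranged from 14592481 to 21368409 per library. In each of the 42 pairs of libraries within a group, counts differed by more than sampling noise would give (chi-square of at least 16.4 per degree of freedom). The labels give each library its own code without saying whether it is 1 mouse or a pool, so p-values measure only the spread between these samples, which may in part be technical. Replicates are numbered here in the order of the records, which pairs nothing. The codes have prefixes, 8 of which are shared by several libraries (18 in all), and what a prefix stands for is not given in the sources used here.

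Only 32 of the 42 libraries were used as liver, those with more than 10000 CPM (counts scaled by library size) of Alb, the albumin gene. They held 66434 to 111995 CPM of Alb, and the other 10 held 18.7 to 81.0 CPM. Among those 10 were the whole AIN93G groups of ZT 16 and ZT 20 (6 libraries), and ZT 24 gave 2 more from AIN93G and 2 from the HFD. The diets were therefore compared over ZT 0 to 12 only, time was followed over ZT 0 to 20 in the HFD and over ZT 0 to 12 in AIN93G, and at ZT 16 and ZT 20 diet and tissue cannot be told apart. The fits used 30 libraries, 3 in each of 10 groups. In the 32 liver libraries, the summed level of 10 hepatocyte markers was 115585 to 164830 CPM, that of 8 adipocyte markers 10.4 to 75.4 CPM, and that of 8 lymphocyte markers 4.34 to 15.6 CPM. The summed level of the kidney markers, an organ where Acmsd and Kmo are also expressed, was 0 to 1.196 CPM. Of these, Kap and Slc12a1 were at 0 counts in all 32 libraries, and Slc12a3 had at most 19 counts and was at 0 in 10 libraries. In bulk tissue, fewer cells of a type and less RNA per cell cannot be told apart.

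The libraries of ZT 12 were not alike. Arntl (Bmal1), a core clock gene, was at 38.4, 43.3, and 46.9 CPM in 3 of the 6 and at 0.90, 1.03, and 1.67 CPM in the other 3, while the 6 libraries of ZT 0 had 39.9 to 49.1 CPM and those of ZT 8 had 1.19 to 2.38 CPM. The 3 high libraries were AIN93G replicates 2 and 3 and HFD replicate 3, and replicate 2 of AIN93G and replicate 3 of the HFD were labelled as light phase while the others were labelled as dark phase. Nr1d1 (Rev-erb alpha), which Arntl activates, was at 1.72 to 5.60 CPM in the high libraries and 11.3 to 14.4 CPM in the low ones. The 2 liver libraries of ZT 24 had 0.75 and 1.11 CPM of Arntl, far from the level of ZT 0. Arntl and Nr1d1 were chosen for this check after their values had been seen, and whether the time labels of the libraries of ZT 12 and ZT 24 are right was not tested. Values of ZT 12 and ZT 24 below stand under the labels as given, and the diet changes of the members, their ratio, and each time test of a member whose call changed are given also without the 3 high-Arntl libraries.

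The 8 genes lie on 7 chromosomes of mm10. Tdo2 (ENSMUSG00000028011) is at chr3:81957090-81976202 on the minus strand, Ido2 (ENSMUSG00000031549) at chr8:24531892-24576333 on the minus strand, Afmid (ENSMUSG00000017718) at chr11:117825924-117839908 on the plus strand, and Kmo (ENSMUSG00000039783) at chr1:175620381-175662116 on the plus strand. Kynu (ENSMUSG00000026866) is at chr2:43555329-43682715 on the plus strand, Haao (ENSMUSG00000000673) at chr17:83831356-83846790 on the minus strand, Qprt (ENSMUSG00000030674) at chr7:127107114-127122226 on the minus strand, and Acmsd (ENSMUSG00000026348) at chr1:127729413-127767978 on the plus strand. All are protein-coding and their values count reads over exons. Afmid overlaps the opposite-strand gene Tk1, which encodes a thymidine kinase, by 169 bases, and the same-strand gene model Gm20708, which had 0 counts in the liver libraries, spans 13981 bases of Afmid. Kmo overlaps Fh1, which encodes fumarase, by 5255 bases at its annotated start. The strand setting of the counting is not given in the sources used here, so reads of Afmid and Tk1, and of Kmo and Fh1, could have been shared or dropped where exons meet. Reads that fit both Afmid and Gm20708 could have been dropped on either strand setting, so the level of Afmid is uncertain.

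The sequence before the start of Haao is shown because it held matches to 2 of the motifs searched, and because Haao had 1 of the highest levels per length and passed no test. It was read from the promoter table of RefSeq on GRCm38.p6, the assembly of mm10, as the 250 bases that end just before the annotated start, 5′ to 3′ on the strand of the gene, and capitals mark motif matches. The window is chr17:83846791-83847040 on the minus strand.
Haao: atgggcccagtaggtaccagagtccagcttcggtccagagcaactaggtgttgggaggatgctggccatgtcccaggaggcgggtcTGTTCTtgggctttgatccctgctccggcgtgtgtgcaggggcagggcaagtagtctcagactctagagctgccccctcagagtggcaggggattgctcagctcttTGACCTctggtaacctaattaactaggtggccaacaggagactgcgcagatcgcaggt

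The promoters of Tdo2, Afmid, Kmo, Haao, and Qprt are described here, searched on both strands over 300 bases, 250 before the start and 50 after it. The nuclear receptor motif AGGTCA, printed above as its reverse complement, was found once each in Haao (first base at position -58) and Tdo2 (-6), and in 16.3% of the 32851 promoters of the table. The glucocorticoid receptor motif TGTTCT was found once each in Haao (-164) and Kmo (15) and in 19.0% of all promoters. No match to the E-box CACGTG, the D-box TTATGTAA, the C/EBP motif TTGCGCAA, or the CRE motif TGACGTCA lay in these 5 windows, against 7.15%, 0.938%, 0.183%, and 1.79% of all promoters. Positions are counted from the RefSeq start, which for Haao is the gene end printed above but for Kmo and Tdo2 lies inside the gene as the count table gives it, with windows at chr1:175631943-175632242 and chr3:81975679-81975978. These are letter matches in short windows, which do not show that a factor binds.

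Levels of the 8 genes were compared per kb of gene length, from CPM with TMM scaling in the 30 libraries. Haao, the dioxygenase that opens the ring of hydroxyanthranilate, had a median of 382 CPM per kb and Tdo2, tryptophan dioxygenase, 319 CPM per kb. Qprt, which makes nicotinate mononucleotide from quinolinate, followed at 66.7 CPM per kb and Kmo, the kynurenine hydroxylase, at 64.5 CPM per kb. Kynu, the kynureninase, was at 31.6, Ido2, a second enzyme for the first step, at 23.8, Afmid, the formamidase that releases kynurenine, at 11.6, and Acmsd, the decarboxylase at the branch point, at 7.91 CPM per kb. The file gives Haao a length of 1222 bases, while its exons in GENCODE M21 span 4681 bases, with which its median would be 99.8 CPM per kb, below Tdo2. The lengths of the other 7 genes were the same in both.

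Between libraries, Acmsd varied most, from 8.05 to 85.6 CPM, a 10.6-fold range, and Kmo least, from 241 to 399 CPM, a 1.65-fold range. The range of the other 6 genes was between 1.73-fold (Qprt) and 3.29-fold (Kynu). When the 10 groups were ordered by their mean, neighbouring groups had overlapping values in all 9 pairs for 7 genes. For Tdo2 they overlapped in 8 of 9, the exception being AIN93G at ZT 0, the lowest group, against AIN93G at ZT 4. In the plot of the 8 genes over time, the widest movement is that of Acmsd in the dark phase.

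**Figure D1:**
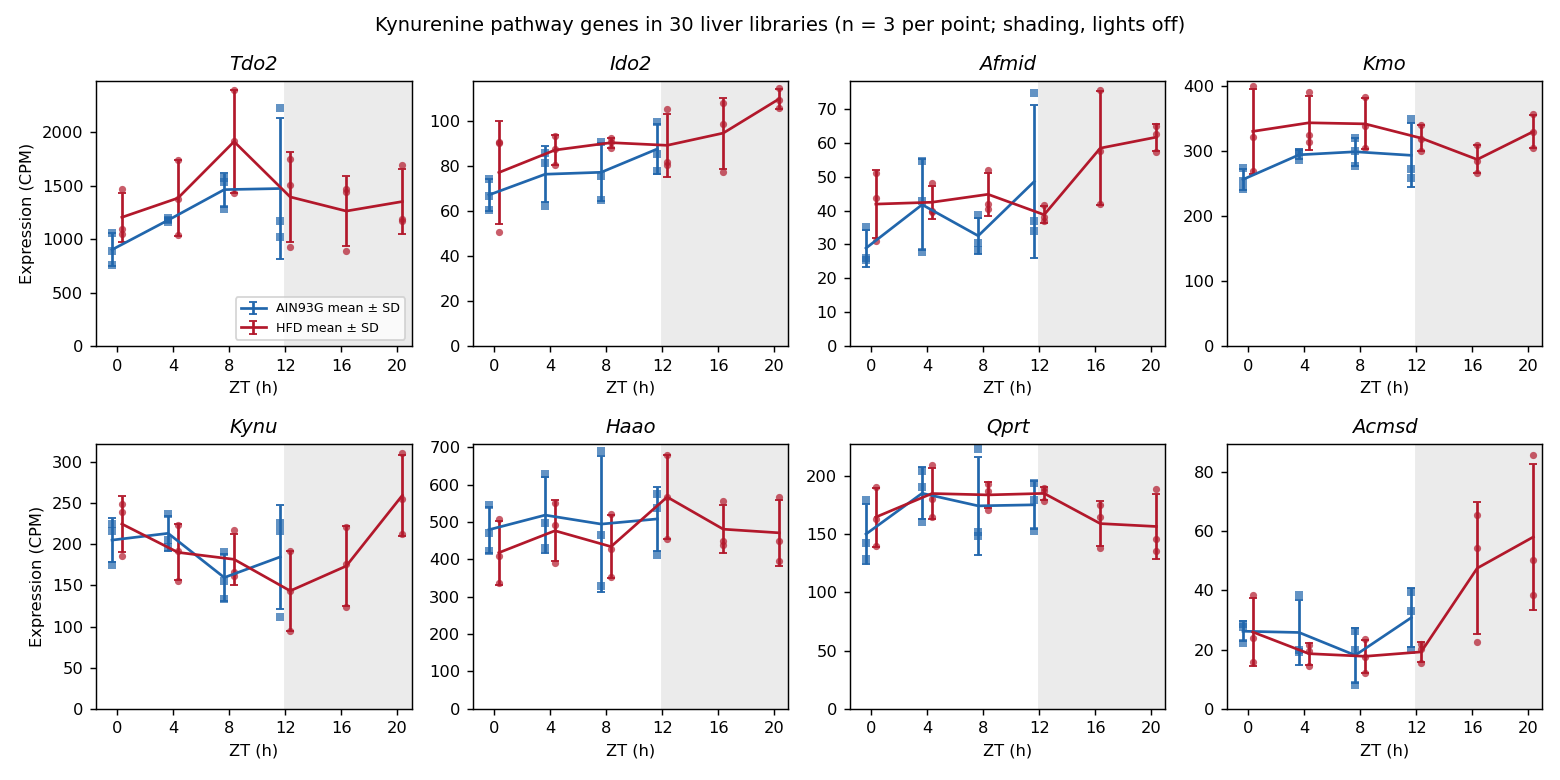
Expression of the 8 genes (CPM, y axes from 0) against ZT in the 30 liver libraries. Small marks are single libraries (squares, AIN93G; circles, HFD), lines join group means and bars are SD (n = 3). Acmsd on the HFD lies at 12.2 to 38.2 CPM from ZT 0 to ZT 12 and reaches 85.6 CPM at ZT 20.

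Whether 3 weeks of the HFD changed the pathway was asked over ZT 0 to 12. None of the 8 genes had an adjusted p-value under 0.05 for the mean difference of the diets in edgeR, and none did in DESeq2. Only 6 of 12023 genes (0.0499%) passed this test, and 976 had an unadjusted p-value under 0.05, among them 1 member, Kmo.

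Kmo, which hydroxylates kynurenine, had AIN93G values of 241, 273, and 253 CPM at ZT 0, while ZT 4 gave 298, 286, and 298, ZT 8 gave 299, 277, and 320, and ZT 12 gave 349, 258, and 272. On the HFD its values were 321, 399, and 269 CPM at ZT 0 and 314, 324, and 391 at ZT 4, followed by 304, 337, and 382 at ZT 8 and by 300, 318, and 340 at ZT 12. The mean was higher on the HFD at all 4 time points, the diets did not overlap at ZT 4, and 11 of 12 HFD libraries lay above the AIN93G median. The log2 fold change was 0.23 (SE 0.07, 95% confidence interval 0.08 to 0.37, unadjusted p = 0.00295, adjusted p = 0.241 in edgeR). It became 0.26 with an adjusted p of 0.0417 without replicate 1 of AIN93G at ZT 12, a fit in which 177 of 12029 genes passed against 6 with all libraries, and 0.15 with an adjusted p of 0.991 without the 3 libraries of ZT 12 with high Arntl. Adjusted p was 0.136 without ZT 12. Kupffer cells and other macrophages also express Kmo, and the summed level of their 8 markers was 545 to 1074 CPM on the HFD and 410 to 509 CPM on AIN93G at ZT 0, where the diet difference of Kmo was largest (log2 fold change 0.37, SE 0.14). At ZT 4, where Kmo did not overlap, the sums were 349 to 604 CPM on the HFD and 358 to 542 CPM on AIN93G. The part of Kupffer cells and macrophages in the difference was not tested.

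The enzymes of the first steps were read next. Tdo2 had 756, 889, and 1059 CPM on AIN93G at ZT 0 and 1465, 1096, and 1050 CPM on the HFD. At ZT 8 it had 1572, 1281, and 1534 CPM on AIN93G and 2394, 1426, and 1913 CPM on the HFD. The values of the diets overlapped at all 4 time points, and the log2 fold change over ZT 0 to 12 was 0.24 (SE 0.14, interval -0.04 to 0.52, adjusted p = 0.647). Ido2 was 77.1 ± 12.1 CPM on AIN93G (SD, n = 12) and 85.9 ± 12.99 CPM on the HFD, with a log2 fold change of 0.16 (interval -0.02 to 0.34, adjusted p = 0.641). Afmid was 37.95 ± 14.2 and 41.99 ± 6.01 CPM in the same order (log2 fold change 0.17, interval -0.09 to 0.44, adjusted p = 0.765). Its diet values did not overlap at ZT 8, with 30.6, 28.4, and 38.6 CPM on AIN93G and 52.0, 40.4, and 42.02 CPM on the HFD. The mean was higher on the HFD at all 4 time points for Ido2, as for Kmo, and at 3 for Afmid. In both genes 11 of 12 HFD libraries lay above the AIN93G median, as for Kmo.

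Of the later enzymes, Kynu, Haao, and Qprt showed small differences in either direction. Acmsd had the largest absolute log2 fold change of the 8 genes, and none passed. Kynu, which splits alanine from the side chain, was 191 ± 39.5 CPM on AIN93G (SD, n = 12) and 185 ± 43.96 CPM on the HFD, with a log2 fold change of -0.05 (interval -0.31 to 0.21). The sign of that change turned when ZT 12 was left out (0.05). Haao was 500 ± 101 and 474 ± 98.8 CPM (log2 fold change -0.09, interval -0.32 to 0.15), and Qprt 171 ± 28.2 and 179 ± 17.8 CPM (0.07, interval -0.10 to 0.24). Acmsd was 25.2 ± 8.95 CPM on AIN93G and 20.4 ± 6.74 CPM on the HFD, with a log2 fold change of -0.30 (SE 0.22, interval -0.75 to 0.15, adjusted p = 0.757). Its HFD mean was 0.990, 0.722, 0.981, and 0.624 times the AIN93G mean at ZT 0, 4, 8, and 12. The difference thus lay mainly at ZT 4 and at ZT 12, where AIN93G replicates 2 and 3 had high Arntl. The values of the diets overlapped at each time point. For Acmsd the interval spans changes from a fall to a small rise. Without the 3 high-Arntl libraries of ZT 12, the log2 fold changes were 0.15 for Tdo2, 0.13 for Ido2, 0.03 for Afmid, 0.06 for Kynu, -0.05 for Haao, 0.12 for Qprt, and -0.17 for Acmsd, and none of these passed (adjusted p = 0.998 in edgeR for each).

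**Figure D2:**
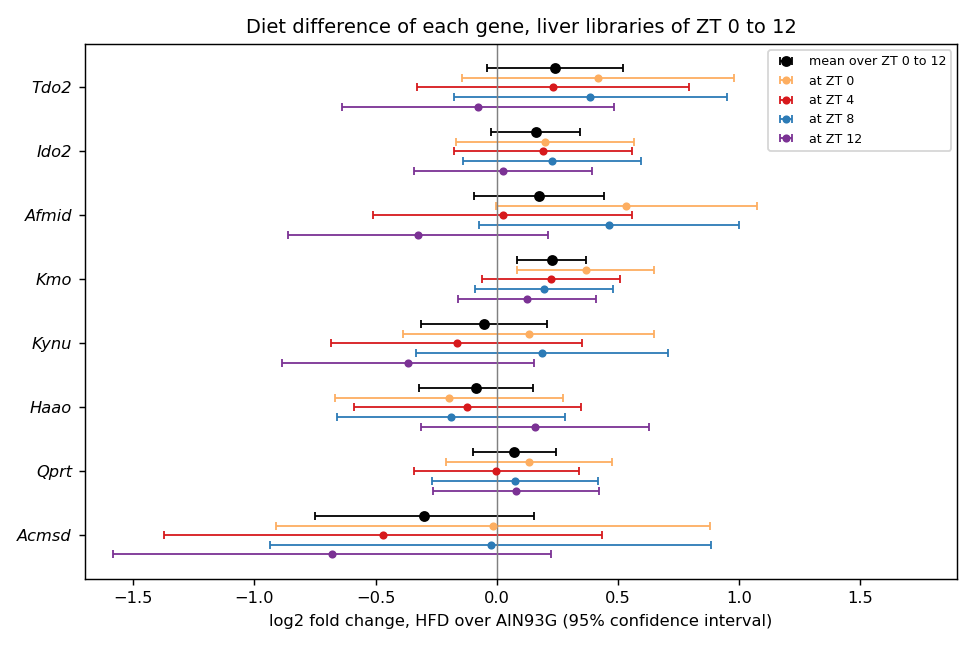
Log2 fold change of the HFD over AIN93G for each of the 8 genes, as the mean over ZT 0 to 12 (black) and at each single time point (colours), with 95% confidence intervals from edgeR. Of the 8 black intervals, only that of Kmo (0.08 to 0.37) lies apart from 0, before adjustment over all genes.

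At single time points no member passed either. In edgeR the test was passed at ZT 8 by 0.0166% of the 12023 genes and at ZT 0, ZT 4, and ZT 12 by 0.0%, with 479, 289, 1385, and 860 genes at an unadjusted p under 0.05 (ZT 0 to 12 in order). DESeq2 called 13, 0, 30, and 3 genes, none of them a member. Diet values of 3 against 3 libraries did not overlap for Kmo at ZT 4 and for Afmid at ZT 8, 1 of 8 members at each, where 7.65% and 13% of all genes did not overlap. They overlapped for all members at ZT 0 and ZT 12, where 13.2% and 10.3% of all genes did not. The interaction of diet with time point was found for 0 genes (0.0%) in edgeR and 5 in DESeq2, with 712 genes at an unadjusted p under 0.05 and none of them a member, and the smallest member value was that of Afmid (unadjusted p = 0.0932, adjusted p = 0.865).

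Time of day was followed through 6 time points on the HFD, and Acmsd was the only member that passed with all 18 libraries in edgeR, although its call among the time points was lost in some alternatives and Kynu passed in others. It had 38.2, 23.8, and 15.7 CPM at ZT 0 and 14.4, 21.7, and 19.7 CPM at ZT 4. ZT 8 gave 17.6, 12.2, and 23.4 CPM, and ZT 12 gave 20.3, 15.5, and 21.8 CPM. At ZT 16 it had 22.5, 65.5, and 54.4 CPM and at ZT 20 38.3, 85.6, and 50.1 CPM. In the dark phase 5 of the 6 libraries of ZT 16 and ZT 20 lay above the highest value of ZT 4 to 12, and the lowest of them, at 22.5 CPM, lay among those values. The mean of ZT 16 and ZT 20 was 52.7 ± 21.8 CPM (SD, n = 6), 2.90 times that of ZT 4 and ZT 8 (12.2 to 23.4 CPM, mean 18.2, n = 6). Adjusted p was 0.0293 for the test of any difference among the 6 time points, which 597 genes (4.97%) passed.

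A 24 h cosine was also fitted to the 18 HFD libraries, which 1003 of 12008 genes (8.35%) passed. For Acmsd the fitted peak was at ZT 18.8 with a peak 3.55 times the trough (adjusted p = 0.00762). In the cosine, leaving out light-labelled libraries, high-Arntl libraries, or replicate 3 of ZT 12 removed the same 1 HFD library. The cosine of Acmsd passed in all alternatives that were run, leaving out each library in turn included. Without the 3 high-Arntl libraries its adjusted p was 0.00556 for the cosine and 0.0247 among the 6 time points. The test among the 6 time points did not pass without replicate 1 of ZT 12 (adjusted p = 0.0514), replicate 3 of ZT 16 (0.0577), or replicate 2 of ZT 20 (0.0809), without a filter on low counts (0.0643), or in a fit of all 42 libraries (1.00). Antisense gene 2900009J06Rik, which overlaps Acmsd by 14363 bases, had at most 13 counts in any of the 30 libraries, against 138 to 1423 for Acmsd. On AIN93G, where the dark phase could not be followed, Acmsd had 8.05 to 39.3 CPM over ZT 0 to 12 and did not pass (adjusted p = 0.849). A difference between the diets in the dark phase was thus not tested.

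The remaining 7 genes did not pass either test on the HFD. Kynu came nearest, with a fitted peak at ZT 22.7 and a peak 1.60 times the trough (adjusted p = 0.0837 for the cosine and 0.174 among the 6 time points). Its group means ran from 143 ± 48.6 CPM at ZT 12 (94.7, 144, and 192 CPM, SD, n = 3) to 260 ± 49.5 CPM at ZT 20 (213, 311, and 255 CPM). These are the lowest and the highest of the 6 group means, and the highest value of ZT 12 came from the library with high Arntl. The cosine of Kynu did not pass without ZT 12 (adjusted p = 0.233). It passed in DESeq2 (adjusted p = 0.0379), without the HFD library of ZT 12 with high Arntl (0.0425), and without replicate 3 of ZT 8 (0.0440). Without the high-Arntl libraries, Kynu also passed the test among the 6 time points (0.0252). Over all genes, the fits without those libraries called 1702 of 12028 genes for the cosine, against 1003 with all libraries, and 1559 of 12031 among the time points, against 597.

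Afmid on the HFD was 57.7, 75.6, and 41.9 CPM at ZT 16 and 65.0, 62.7, and 57.3 CPM at ZT 20, against 31.1 to 52.0 CPM over ZT 0 to 12. The fitted peak was at ZT 18.4 with a fold of 1.46 (adjusted p = 0.110). Tdo2 had its fitted peak at ZT 8.47 with a fold of 1.37 (adjusted p = 0.323), and its highest library, at 2394 CPM, was 1 of ZT 8. Ido2 was highest at ZT 20 (110 ± 4.43 CPM, SD, n = 3) and lowest at ZT 0 (77.1 ± 22.8 CPM), with an adjusted p of 0.506. For Kmo, Haao, and Qprt the fitted fold was 1.14, 1.21, and 1.21 (adjusted p = 0.495, 0.473, and 0.244).

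In AIN93G over ZT 0 to 12, 21 genes (0.175%) passed the test of time, with 1256 at an unadjusted p under 0.05 and 276 in DESeq2, and no member passed in either. Tdo2, which did not pass, had group means of 901 ± 152 CPM at ZT 0, 1177 ± 21.4 CPM at ZT 4, and 1463 ± 158 CPM at ZT 8 (SD, n = 3). At ZT 12 it was at 2229, 1172, and 1018 CPM, and the high value was that of the only 1 of these 3 libraries with low Arntl. Adjusted p for Tdo2 was 0.495 with all libraries, 0.193 without ZT 12, and 0.0235 without the high-Arntl libraries, in which ZT 12 is 1 library that is assumed to vary like the other groups. The latter fit called 719 of 12031 genes, against 21 with all libraries. Afmid passed in it as well (0.0167, against 0.421 with all libraries), with 74.7 CPM in that library and 25.5 to 54.5 CPM at ZT 0 to 8.

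Between the 3 libraries of ZT 12 with high and the 3 with low Arntl, 5 of the 8 genes did not overlap, against 29.7% of all genes, in libraries divided after their clock genes were seen. In CPM by library size, Tdo2 was 926 to 1205 in the high-Arntl libraries and 1410 to 2003 in the low ones, while Kynu was 191 to 228 and 88.9 to 138. Haao (552 to 675 against 371 to 543), Qprt (181 to 199 against 137 to 178), and Acmsd (21.7 to 40.4 against 14.8 to 19.1) were higher with high Arntl. Ido2, Afmid, and Kmo overlapped. These are descriptions without a test.

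**Figure D3:**
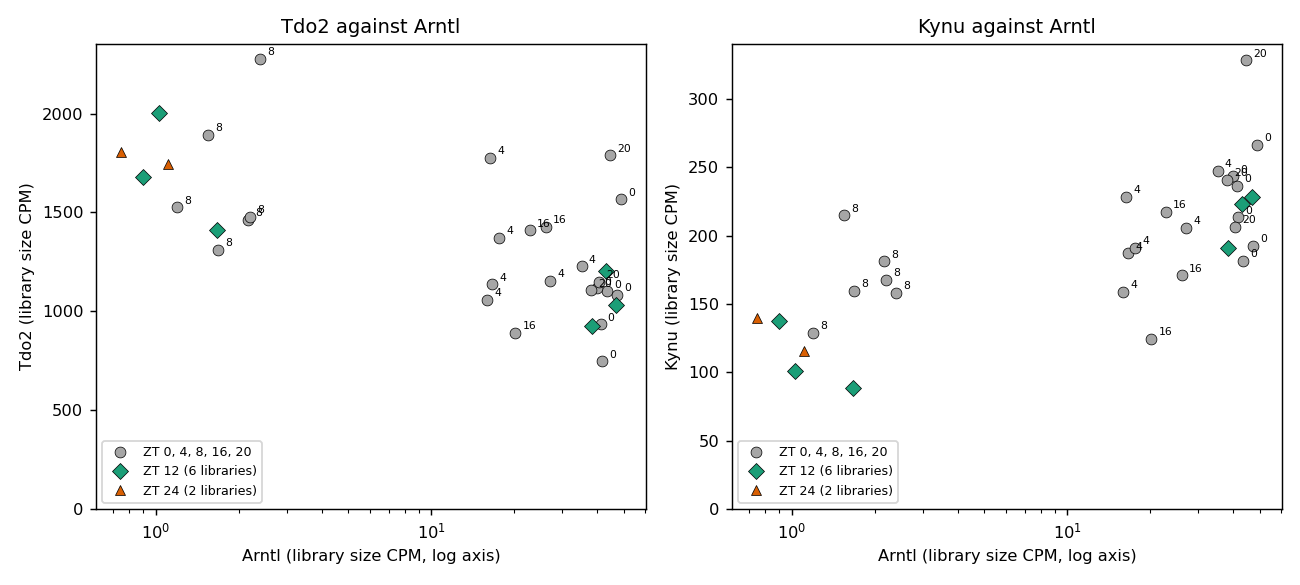
Tdo2 (left) and Kynu (right) against Arntl in the 32 liver libraries, in CPM by library size with a log axis for Arntl. Grey circles carry their ZT, diamonds are the 6 libraries of ZT 12, and triangles are the 2 liver libraries of ZT 24. The ZT 12 libraries fall into 3 with Arntl at 38.4 to 46.9 CPM and 3 with Arntl at 0.90 to 1.67 CPM, the latter with more Tdo2 and less Kynu.

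RNA around the branch point was read as the ratio of Acmsd to Qprt, in counts per kb. The product of Haao is either decarboxylated by the Acmsd enzyme or closes to quinolinate, the substrate of the Qprt enzyme. The Qprt enzyme thus acts after the branch, and neither enzyme amounts nor flux were measured. Over ZT 0 to 12 the ratio was below 1 in all libraries. On AIN93G the values at ZT 0 were 0.116 to 0.202, those at ZT 4 0.0902 to 0.189, those at ZT 8 0.0497 to 0.126, and those at ZT 12 0.122 to 0.190. On the HFD the ranges were 0.105 to 0.188, 0.0750 to 0.111, 0.0609 to 0.128, and 0.0812 to 0.109 in the same order. At ZT 12 the diets did not overlap in this ratio, with the HFD lower, and at the other time points they did. The mean difference of the HFD from AIN93G was -0.35 on the log2 scale (p = 0.0749 in an exact two-sided permutation test within time points, 160000 divisions). On the linear scale the exact permutation p was 0.0429, and without ZT 12 the log2 difference was -0.22 (exact permutation p = 0.337). Without the 3 high-Arntl libraries it was -0.27 (exact permutation p = 0.158), and at ZT 12 the AIN93G library that is then left had a ratio of 0.122, against 0.0812 and 0.100 on the HFD. In the dark phase on the HFD the ratio ran from 0.121 to 0.590 (median 0.279, n = 6), against 0.0609 to 0.188 (median 0.103, n = 12) over ZT 0 to 12.

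**Figure D4:**
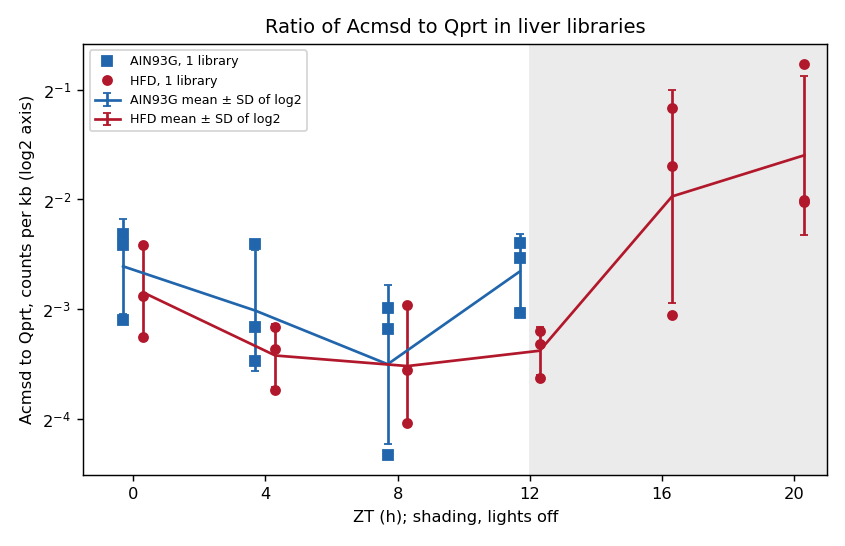
Ratio of Acmsd to Qprt (counts per kb, log2 axis) against ZT in the liver libraries. Marks are single libraries (squares, AIN93G; circles, HFD), lines join the group means of the log2 ratio and bars are their SD (n = 3). On the HFD, 5 of the 6 libraries of ZT 16 and ZT 20 lie above the highest ratio of ZT 0 to 12 (0.188), and all 30 lie below 1.

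Genes around the pathway were read from 8 lists with 70 genes, of which 56 passed the filter of a mean count of 25. Ido1, the inducible enzyme of the first step in immune cells, and the tryptophan hydroxylase genes Tph1 and Tph2 were among the 14 that did not. Between the diets over ZT 0 to 12 none of the 56 passed in edgeR. An unadjusted p under 0.05 was found for 8 of them, against 976 of all 12023 genes. Their median log2 fold change was 0.09, against -0.00 over all genes. Of the 12 regulators and glucocorticoid targets, such as Nr3c1 (the glucocorticoid receptor) and Tat (tyrosine aminotransferase), 10 had a positive log2 fold change with a median of 0.26, against 49.3% of all genes, and none passed. They were positive in 12 of 12 at ZT 0, 10 at ZT 4, 6 at ZT 8 (median -0.03), and 6 at ZT 12. All 8 markers of Kupffer cells and macrophages were positive as well, with a median of 0.26. Of these markers 4 had an unadjusted p under 0.05 (5 at ZT 0, with a median of 0.69), and none passed. The part of these cells in the other lists was not tested. All 6 genes of the glutarate branch that follows the Acmsd enzyme had a positive log2 fold change with a median of 0.10, and none passed. The lists of uptake and charging (3 of 7 positive, median -0.00) and of serotonin and indole fates (1 of 4, median -0.09) lay at or below 0. Of the nicotinamide clearance genes and NAD consumers, 7 of 8 were positive (median 0.13) and 4 had an unadjusted p under 0.05. The other lists were NAD synthesis (8 of 10 positive, median 0.09), AHR targets and kynurenine receptors (3 of 5, median 0.12), and the other first step with the aminotransferases (2 of 4, median 0.01), and no gene of any of the 8 lists passed.

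On the HFD, 2 of the 56 genes (3.57%) passed the test among the 6 time points, Inmt and Nmrk1, against 4.97% of all genes, and 8 (14.3%) passed the cosine, against 8.35% of all genes. Nmrk1, a nicotinamide riboside kinase, had group means of 20.3 ± 2.79 CPM at ZT 0 and 60.6 ± 2.98 CPM at ZT 16 (SD, n = 3), with a fitted peak at ZT 13.8 and a fold of 3.36 (adjusted p = 0.000768). Inmt, which methylates tryptamine and other amines, went from 356 ± 32.2 CPM at ZT 0 to 1184 ± 134 CPM at ZT 16 (fold 3.29, peak at ZT 13.5, adjusted p = 0.000768). Nampt, the rate-limiting enzyme of NAD salvage from nicotinamide, had 49.2 to 66.0 CPM at ZT 0 and 57.9 to 276 CPM at ZT 12, with a fold of 3.43 and a peak at ZT 13.2 (adjusted p = 0.00398). The other 5, named after their values had been seen, were Kyat3, a kynurenine aminotransferase (peak at ZT 17.2, fold 1.73), Aox3, an aldehyde oxidase (ZT 3.95, 2.10), Per1, a clock gene (ZT 12.1, 2.88), Sds, serine dehydratase (ZT 8.05, 2.02), and Echs1, a hydratase of the glutarate branch (ZT 9.09, 1.296). Without ZT 12 the cosine of Aox3 (adjusted p = 0.0583) and Echs1 (0.0940) did not pass, and the other 6 of these 8 passed. Without the 1 HFD library of ZT 12 with high Arntl, the count rose to 15 of 56 listed genes (26.8%), against 14.2% of all genes, and included these 8, with peaks of Nmrk1, Inmt, and Nampt at ZT 13.6, 13.3, and 13.1. With all libraries the fitted peaks of Nmrk1, Inmt, and Nampt lay near lights off, while that of Acmsd lay at ZT 18.8. Differences between these peak times were not tested.

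**Figure D5:**
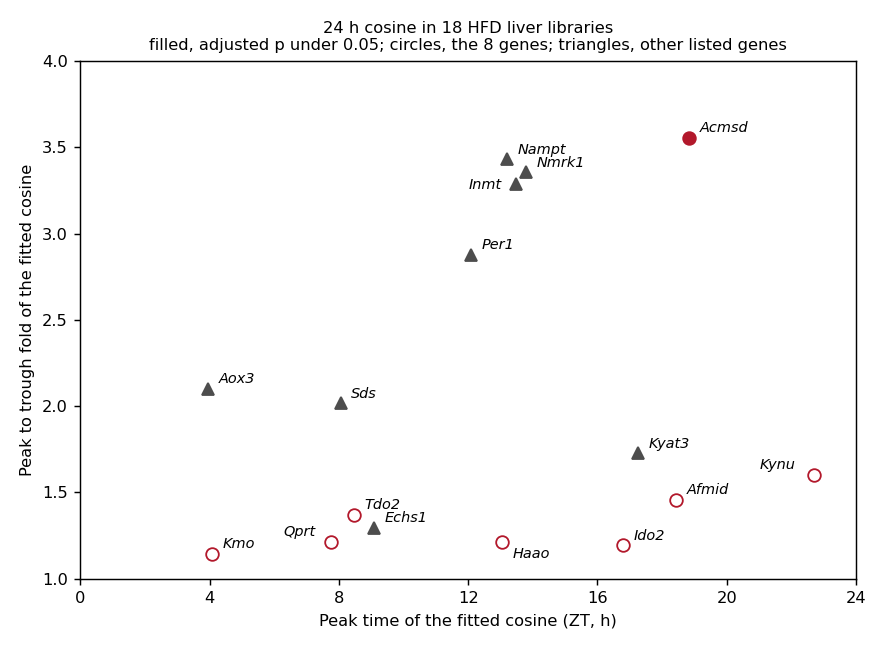
Peak time (ZT, h) and peak to trough fold of the 24 h cosine fitted to the 18 HFD libraries of ZT 0 to 20. Circles are the 8 genes, triangles the 8 other listed genes that passed, and filled marks have an adjusted p under 0.05. Of the circles only Acmsd, at ZT 18.8 and 3.55-fold, is filled.

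Genes with the most similar profile were found for each member by Pearson's r of log2 CPM over the 30 libraries, which share diet, time, and scaling, so that r is a description. For Afmid the first was Tk1 (r = 0.86), whose RefSeq start lies 95 bases inside Afmid on the opposite strand, followed by Ahcy (0.84) and Cyp3a13 (0.83). Haao was closest to Qdpr (0.87), Hyi (0.86), and Tpi1 (0.86), and Kynu to Tab2 (0.85), Cpeb4 (0.83), and AU022252 (0.82). For Tdo2 the genes were Zcchc24 (0.83), Saa4 (0.82), and Fam76a (0.81), for Kmo Gm20319 (0.81), Nat8f2 (0.80), and Aadat (0.78), and for Qprt Polr3gl (0.81), Slc6a12 (0.78), and Pecr (0.77). Acmsd had Baat (0.79), Flt3l (0.75), and Prkar2a (0.74), and Ido2 had Hrg (0.77), Aass (0.76), and Ahcy (0.76). Among the members themselves, r was highest for Haao with Qprt (0.64), Ido2 with Afmid (0.64), and Kynu with Acmsd (0.61), and lowest for Tdo2 with Haao (-0.23).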

How the data were processed

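The authors deposited raw read counts per gene of 42 libraries, without normalization. The submitters' processing notes name fastp, STAR, HTSeq 0.6.1, DESeq, STAR-Fusion, and mm10, without settings, and the kit, NEBNext Ultra RNA, is given without a strand setting. Column names equalled sample titles.

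In R 4.3.3, counts were scaled by TMM and tested in edgeR 4.0.16 (quasi-likelihood) with 1 mean per group. Genes averaging 25 counts or more entered, and calls had a Benjamini-Hochberg adjusted p-value under 0.05. DESeq2 1.42.0, other scalings and filters, other sets of libraries, and leaving out each library were the alternatives, and the fit without the 3 high-Arntl libraries of ZT 12, and those of listed genes without ZT 12, were added after seeing the data. Log2 CPM used a prior count of 2, and the ratio of Acmsd to Qprt 0.5 added to counts. Tests were checked on simulated counts.

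The members and lists were chosen with earlier results of these data known. Named were the members, up to 3 listed genes per direction and comparison with the smallest adjusted p, the 3 most similar genes of each member, Alb, and Adipoq. Outside this rule, clock genes, overlapping genes, single markers, list examples, and 5 genes that passed the cosine were named after their values were seen. Total counts of 14592481 to 21368409 limit a level to shares above 3 counts, for counting error only. Some markers and sequences are not reported here.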

Additional observations from a re-analysis of the deposited data

Results flagged for a closer look

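The 10 libraries labelled as liver with little Alb were in no comparison, but all 8 genes had more than 3 counts in at least 1 of them. In CPM by library size, the highest value was 1.29 for Tdo2, 0.498 for Ido2, 4.86 for Afmid, 20.1 for Kmo, 7.66 for Kynu, 16.9 for Haao, 4.42 for Qprt, and 0.498 for Acmsd. The liver libraries lay far above, and the lowest liver value was 578 times the highest of these values for Tdo2 and 5.51 times for Afmid. The 10 libraries had 1455 to 2984 CPM of Adipoq, a gene of adipocytes.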

How the results depend on the processing

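No paired analysis was possible because the labels give no replicate number and do not say what the prefix and suffix of the library codes stand for. Over all genes, for the diet over ZT 0 to 12 (6 genes), 83 were called in DESeq2, 29 without a filter, 1 in a fit of all 42 libraries, 63 without ZT 12, 0 without the 3 high-Arntl libraries of ZT 12, and 4 to 177 with 1 library left out, the highest without replicate 1 of AIN93G at ZT 12. At ZT 0 (0 genes) DESeq2 called 13 and the 6 libraries alone 9, at ZT 4 the 6 libraries alone called 1. At ZT 8 (2 genes) the counts were 30 in DESeq2, 7 without a filter, 0 with 42 libraries, 0 with the 6 libraries alone, and 0 to 35 with 1 library left out. At ZT 12 (0 genes) they were 3, 1 without a filter, 2 without the high-Arntl libraries, and 0 to 72. The interaction (0 genes) had 5 in DESeq2, 1 without a filter, and 0 to 2. Time in AIN93G (21 genes) had 276 in DESeq2, 59 without a filter, 1 with 42 libraries, 227 without the light-labelled libraries of ZT 12, 416 without ZT 12, 719 without the high-Arntl ones, and 12 to 245. Time in the HFD (597 genes) had 1658, 65 with 42 libraries, 1224, 1026, 1559, and 298 to 1165, in the same order. The cosine (1003 genes) had 1693 in DESeq2, 1702 without the light-labelled or high-Arntl library, and 639 to 1702.

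Among members, Kmo was 1 call for the diet in 1 of 30 fits with a library left out (0 to 1). For time in the HFD the count was 0 without a filter and with 42 libraries, 2 without the high-Arntl libraries, and 0 to 1 with 1 library left out. In AIN93G it was 2 without the high-Arntl libraries. For the cosine it was 2 in DESeq2, 2 without the light-labelled or high-Arntl library, and 1 to 2. The diet change of Kynu reversed to 0.0508 without ZT 12, 0.05995 without the high-Arntl libraries, and 0.00353 without replicate 1 of the HFD at ZT 12, the highest with 1 library left out (lowest -0.12). The Acmsd to Qprt difference was -0.0324 on the linear scale (exact permutation p = 0.0429) and -0.45 to -0.27 with 1 library left out, where the exact permutation p ran from 0.0130 to 0.173 and was under 0.05 in 5 of 24 fits. The diet changes of Tdo2, Ido2, Afmid, Haao, Qprt, and Acmsd kept their direction and stayed above the threshold in 9 alternatives and 30 fits with 1 library left out. The cosine of Acmsd stayed under it in 8 and 18, which count the fit without the high-Arntl HFD library more than once. With 1 library left out, the change of Haao ran from -0.14 to -0.01, of Qprt from 0.03 to 0.13, of Afmid from 0.12 to 0.29, of Tdo2 from 0.19 to 0.35, of Ido2 from 0.12 to 0.21, and of Acmsd from -0.40 to -0.20.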

Other observations

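The 2 liver libraries of ZT 24 were in no fit. In CPM by library size, Tdo2 was at 1808 on AIN93G and 1743 on the HFD, above the 747 to 1566 of the 6 libraries of ZT 0. Kynu was at 139 and 115, below the 181 to 266 of ZT 0, and both values lay near the 88.9 to 138 of the low-Arntl libraries of ZT 12. Acmsd was at 21.3 and 18.4, Kmo at 336 and 351, and Haao at 580 and 416. With 1 library per diet there is no test.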
